A study of Mus musculus with 6 samples.

Results

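The 8 genes described here encode transcription factors of γδ T cells that make interleukin 17 (type 17 γδ cells): Rora, Maf, Zbtb16, Sox13, Sox4, Hlf, Batf and Ahr. They were taken by gene name from the non-control probes of the array, with every probe of each gene, which gave 13 of 39429 probes and 8 of 30342 gene names. The arrays measured γδ T cells from the spleen of Eomes-IRES-GFP mice on a C57BL6 background, a knock-in reporter (Eomestm1.1Twa) carried by all cells compared, in which green fluorescent protein (GFP) is made from the locus of Eomes, a T-box factor of natural killer (NK) and memory T cells. One group was sorted as GFP-positive (Eomes-positive) and the other as GFP-negative (Eomes-negative), both from CD3-positive, TCRγδ-positive, TCRβ-negative cells left after depletion of cells bearing B220, CD4 or CD8β. Each of the 3 independent sorts pooled 4 to 6 spleens and gave 1 array per group, from mice of 9 weeks in sort 1, 9.5 weeks in sort 2 and 7.5 weeks in sort 3. The labels name no stimulation, and RNA was extracted right after sorting.

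Type 17 γδ cells acquire their fate in the thymus and leave it ready to secrete interleukin 17, a cytokine of barrier defence, while other γδ cells are set to make interferon γ. The HMG-box proteins Sox4 and Sox13, the leucine zipper protein c-Maf and the zinc finger protein PLZF act in building or keeping the first fate. T-bet and Eomes are T-box factors of the opposite, interferon γ fate. The comparison therefore asked how far the factors of the type 17 fate differed between γδ cells with and without the Eomes reporter.

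The RNA input was 9 ng in sorts 1 and 2 and 4 ng in sort 3, and the 75th percentile of signal was 534 to 1684 intensity units over the 6 arrays. A level is the log2 signal minus the log2 of that array's 75th percentile, so 0 stands for a signal at that percentile. A difference is the level in Eomes-positive cells less the level in Eomes-negative cells. Precision is limited throughout by having 3 arrays per group. A probe with at least 50% of its spots well above background was taken as measured on that array. The reporter sort was reflected in Eomes itself, at 5.31, 4.96 and 4.48 in Eomes-positive cells of sorts 1, 2 and 3, against 0.72, 0.88 and -1.14 in Eomes-negative cells. Tbx21, the gene of T-bet, read 3.42, 3.09 and 3.66 in Eomes-positive cells, against 2.18, 2.26 and 2.38 in Eomes-negative cells (difference 1.12, limma adjusted p = 0.0447). Omitting any 1 sort or array ended the Tbx21 call (adjusted p = 0.0632 to 0.457). The Eomes call (difference 4.76, adjusted p = 0.0178) ended without sort 1 or 2 (0.251 and 0.153), without Eomes-negative array 1 (0.0587) and without any Eomes-positive array (0.0572 to 0.0887). Transcripts of the sorted lineage were close between groups: Cd3g, a chain of the CD3 complex, stood at 6.41 ± 0.38 in Eomes-positive and 6.48 ± 0.37 in Eomes-negative cells (SD, n = 3 each). In such bulk samples, fewer cells of a type and less RNA per cell cannot be told apart.

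Of the 8 genes, Rora, Maf, Zbtb16 and Hlf fell in Eomes-positive cells and 0 rose (limma, adjusted p under 0.05), and 6, all lower, had an unadjusted p under 0.05. Over all 16413 genes tested, 1.57% fell and 1.2% rose at the adjusted threshold, and 12.2% had an unadjusted p under 0.05 in either direction. Leaving out sort 1, 2 or 3 left 0, 0 and 2 of the 4 calls. The median log2 difference was -2.06 over the 8 genes and -0.01 over all genes. Sox13, Ahr and Batf had lower levels in Eomes-positive cells in each of the 3 sorts without passing the test. By its brightest probe, Sox4 did not differ beyond the spread between arrays. All 3 Eomes-positive arrays lay below all 3 Eomes-negative arrays for 7 of the 8 genes, an arrangement found in 9.68% of all genes tested, with the opposite one in 8.53%. The 8 genes were chosen with earlier results of these data known, so these counts and medians are no independent support for a direction.

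**Figure D1:**
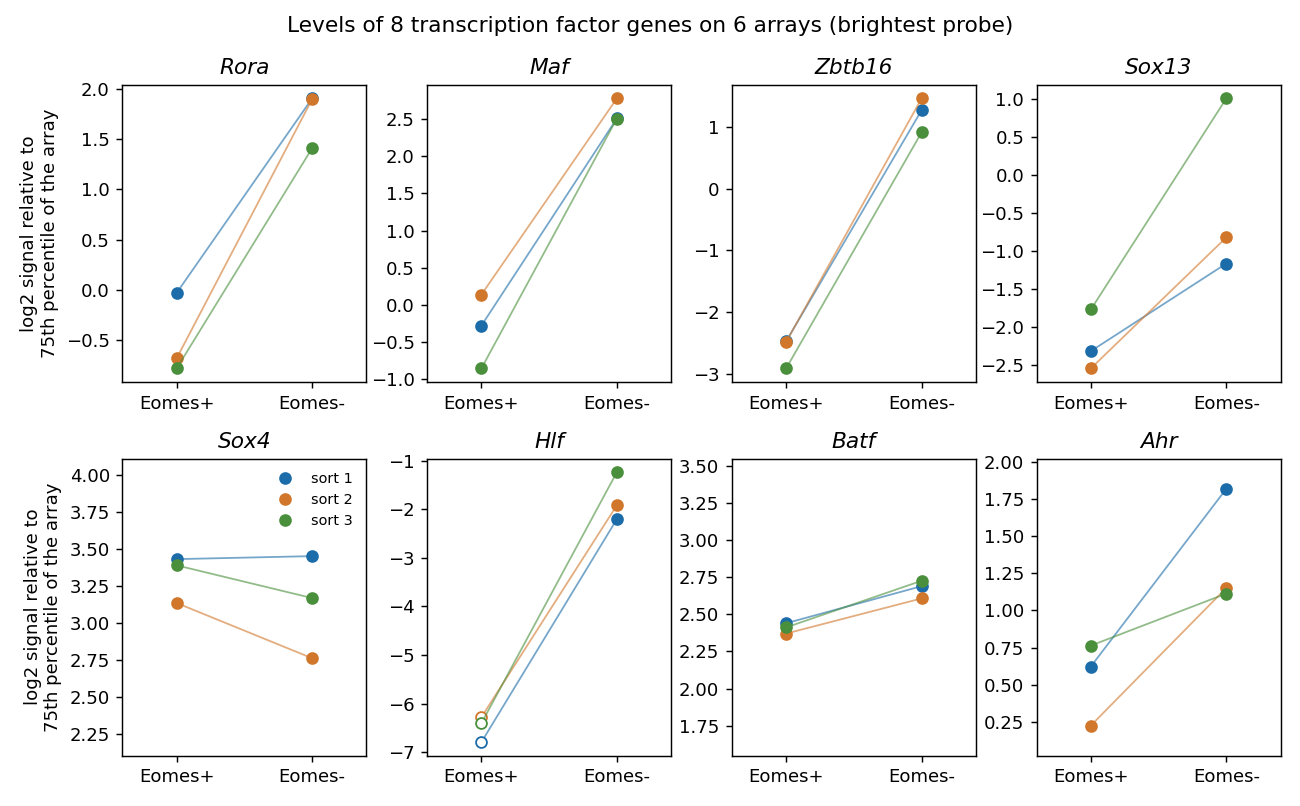
Levels of the 8 genes on the 6 arrays, by the brightest probe of each, as log2 signal relative to the array's 75th percentile (each panel has its own vertical range). Eomes+ is on the left and Eomes- on the right, lines join the arrays of 1 sort, and open circles mark values not well above background. The lines climb toward Eomes- in 7 panels, most steeply for Hlf, and the Sox4 panel alone has overlapping groups.

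What an array reports depends on where its probes lie, and Rora, Maf and Ahr each had 2 probes of unequal signal. The first 30 bases of the 60-base probes are therefore shown for the 4 genes that fell and for Sox13 and Ahr. Positions (mm9 build) come with the scanner values, and which exon or UTR each probe lies in was not looked up here. The letters are those of the files' sequence column, 5′ to 3′.
Rora probe 1, chr9:69226774-69226833, plus strand: gcgcccgagcacttctagaacatctggagt
Rora probe 2, chr9:68511835-68511894, plus strand: tagttttcagtcaggaaaccagtggatgat
Maf probe 1, chr8:118227736-118227795, minus strand: tgggtatgtgtagttcttgctataccatgg
Maf probe 2, chr8:118207273-118207332, minus strand: gaacaagccttggtttacattagaataacg
Zbtb16, chr9:48462419-48462478, minus strand: tatttcttccgttctacaggaccttgctct
Hlf, chr11:90200696-90200755, minus strand: ccgtgtttctcatcctctgtttgcttttga
Sox13, chr1:135279099-135279158, minus strand: cccccctttcctcctaaattagcttcctgg
Ahr probe 1, chr12:36182724-36182783, minus strand: ccttgctgtcctttaaactgttacttgctt
Ahr probe 2, chr12:36188523-36188582, minus strand: ttagattttgtcagttgtttacaagttcct
The Rora probes lie 715 kb apart, the Maf probes 20.5 kb and the Ahr probes 5.80 kb. In these 3 genes probe 2 was dim or below background.

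Zbtb16 encodes PLZF, a BTB zinc finger factor that gives innate-like T cells, among them NKT cells and some γδ cells, their rapid effector character. Its level was -2.47, -2.48 and -2.91 in Eomes-positive cells of sorts 1, 2 and 3, against 1.27, 1.46 and 0.91 in Eomes-negative cells. The groups were far apart and each was tight, and all spots were well above background on all 6 arrays. The difference was -3.83 (SE 0.22), a 14.2-fold lower signal (limma adjusted p = 0.0019), with a 95% interval of -4.36 to -3.30. The 3 sorts gave -3.74, -3.94 and -3.82, the narrowest spread for its size among the genes that fell. The call was lost without sort 1 (adjusted p = 0.102) and without sort 2 (adjusted p = 0.0664), with 2 arrays left per group, at differences of -3.88 and -3.78.

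Maf encodes c-Maf, a leucine zipper factor required for type 17 γδ cells in mice and also made by macrophages and several T cell subsets. Probe 1 read -0.28, 0.14 and -0.85 in Eomes-positive cells, against 2.51, 2.78 and 2.51 in Eomes-negative cells. The lowest Eomes-negative array lay well above the highest Eomes-positive one. The difference was -2.93 (SE 0.28), a 7.60-fold lower signal (limma adjusted p = 0.00786), with a 95% interval of -3.61 to -2.24. Sort 3 gave the greatest difference, -3.36, against -2.78 in sort 1 and -2.64 in sort 2. The adjusted p was 0.211 without sort 1, 0.0774 without sort 2 and 0.053 without sort 3, at differences of -2.71 to -3.07.

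Maf probe 2 read -7.03, -7.12 and -5.77 in Eomes-positive cells, where no array was well above background, against -4.07, -3.74 and -0.94 in Eomes-negative cells, where all 3 were. The Eomes-negative array of sort 3 stood apart. Set against the lowest signal of probes with all spots well above background on each Eomes-positive array, a floor used for every bound below, the signal was at least 3.42-fold lower, or at least 1.73-fold without that Eomes-negative array. The difference at this probe passed the test when sort was a block (limma adjusted p = 0.0228 over 21131 probes) and not without it (adjusted p = 0.140).

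Because macrophages make c-Maf, the 12 myeloid marker genes were read beside it. All 12 were tested, 0 passed in either direction (limma, also 0 at an unadjusted p under 0.05), and their median difference was -1.18, with 9 lower and 3 higher in Eomes-positive cells on average. Their summed level was 4.04, 6.75 and 5.37 in Eomes-positive cells of sorts 1, 2 and 3, against 5.11, 7.65 and 5.23 in Eomes-negative cells. Sort 2 had the highest sum in both groups. Of the 12, 2 were higher in Eomes-positive cells in sort 1, 2 in sort 2 and 11 in sort 3. Of the 2 brightest, the integrin gene Itgam differed by 0.07 and the lysozyme gene Lyz2 by 0.40. The complement gene C1qa, a macrophage transcript, read -2.11, 2.05 and -1.42 in Eomes-positive cells of sorts 1, 2 and 3, against 1.65, 4.25 and -2.98 in Eomes-negative cells, so it was lower in Eomes-positive cells of sorts 1 and 2 and higher in those of sort 3. The part of such cells in the Maf difference was not tested.

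**Figure D2:**
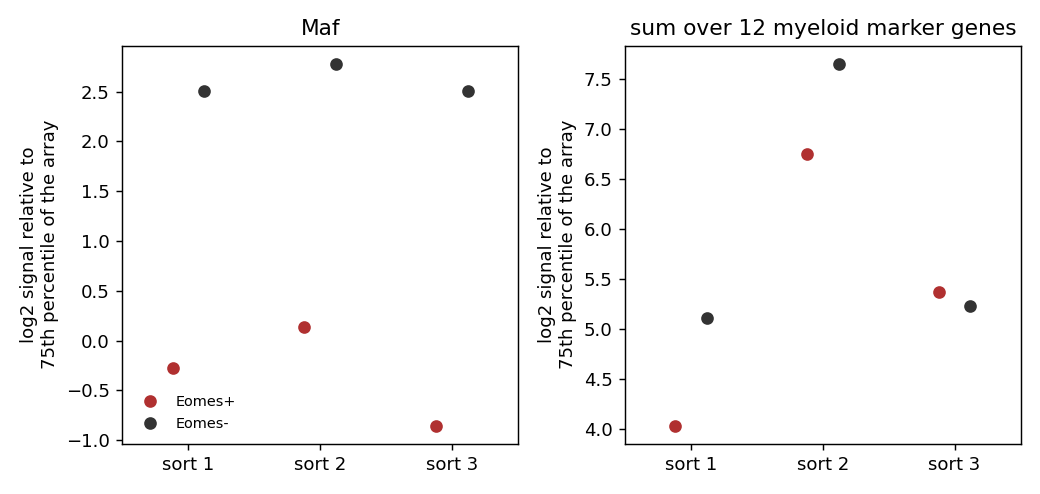
Level of Maf (left, probe 1) and summed level of 12 myeloid marker genes (right) in each sort, both as log2 signal relative to the array's 75th percentile, with Eomes+ in red left of Eomes- in dark grey. The Maf gap is -2.78, -2.64 and -3.36 in sorts 1, 2 and 3, and the myeloid sum differs by -1.07, -0.90 and 0.14.

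Rora encodes RORα, a nuclear receptor that acts in cells making interleukin 17 and is also the factor of group 2 innate lymphoid cells. Probe 1 read -0.03, -0.68 and -0.78 in Eomes-positive cells, against 1.90, 1.90 and 1.41 in Eomes-negative cells. The groups did not overlap, and even the lower group was well above background on all 3 arrays. The difference was -2.23 (SE 0.27), a 4.70-fold lower signal (limma adjusted p = 0.0155), with a 95% interval of -2.89 to -1.57 and -1.93, -2.57 and -2.19 in the 3 sorts. Rora probe 2 stayed near background on all 6 arrays, none of which counted as measured, so it gave no measure of the gene. Of the 4 genes that fell, Rora lost its call most often. Its adjusted p was 0.133, 0.221 and 0.098 without sort 1, 2 and 3, and 0.0739, 0.0703, 0.0644 and 0.0595 without Eomes-negative array 1 or 2 or Eomes-positive array 2 or 3, at differences of -2.06 to -2.38.

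Group 2 innate lymphoid cells were considered because they use Rora. Of their 10 listed genes, 4 (Il13, Il5, Areg and Calca) were not measured on any array and 3 could be tested, of which Neurl3 was higher (1.20, limma adjusted p = 0.0123). The other tested genes had negative differences, Arg1 of -2.03 (adjusted p = 0.125, or 0.034 with the sort as a block) and Ptgir of -3.39 (adjusted p = 0.346, or 0.125 with the block), and the median of the 3 was -2.03. The Neurl3 call ended without any 1 sort (adjusted p = 0.0855 to 0.249) or any array but Eomes-negative array 3 (0.0529 to 0.0712). The summed level was 1.68, 1.74 and 1.69 in Eomes-positive cells, against 0.77, 0.98 and 0.90 in Eomes-negative cells, higher in all 3 sorts. Neurl3 was the brightest gene of this list. The part of such cells in the Rora difference was not tested.

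Hlf encodes hepatic leukemia factor, a leucine zipper protein of the PAR family, best known for circadian output in liver and for haematopoietic stem cells. It read -6.79, -6.28 and -6.40 in Eomes-positive cells of sorts 1, 2 and 3, where no array was well above background, against -2.21, -1.92 and -1.24 in Eomes-negative cells, where all were. As intensities, the Eomes-positive arrays had 14.3, 20.7 and 6.31 units and the Eomes-negative arrays 364, 445 and 233. The signal was thus at least 7.48-fold lower at the background floor, or at least 6.18-fold without the Eomes-negative array of sort 3. Such bounds are taken on group means and depend on the floor and the arrays used. The fitted difference, which draws on Eomes-positive values below background, was -4.70 (SE 0.30, limma adjusted p = 0.0026). It was -4.59, -4.36 and -5.17 in the 3 sorts, and its call was lost without sort 1 (-4.76, adjusted p = 0.0844) or sort 2 (-4.88, adjusted p = 0.0683). With normexp background correction the Hlf difference was -2.18 (limma adjusted p = 0.0483).

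Stem and progenitor cells were considered because they make Hlf. Of 10 listed genes, 6 were tested and 0 passed (2 at an unadjusted p under 0.05). Ly6a, the Sca-1 gene, also made by lymphocytes, differed by -1.14 (limma adjusted p = 0.274, or 0.0359 with the sort as a block). Kit, the stem cell factor receptor, differed by -1.17 (adjusted p = 0.0678, or 0.0489 with the block), and Mecom, a stem cell factor gene, was not measured on any array. The summed level was 3.36, 3.99 and 4.35 in Eomes-positive cells, against 4.62, 4.70 and 5.51 in Eomes-negative cells, lower in all 3 sorts. The part of such cells in the Hlf difference was not tested.

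The promoters of 5 of the 8 genes were in the RefSeq table (GRCm38.p6 build). Those of Rora and Hlf, the genes among them that fell, are shown for the 250 bases before the start of the gene, 5′ to 3′ on the gene's strand, with motif matches in capitals.
Rora, chr9:68653536-68653785, plus strand: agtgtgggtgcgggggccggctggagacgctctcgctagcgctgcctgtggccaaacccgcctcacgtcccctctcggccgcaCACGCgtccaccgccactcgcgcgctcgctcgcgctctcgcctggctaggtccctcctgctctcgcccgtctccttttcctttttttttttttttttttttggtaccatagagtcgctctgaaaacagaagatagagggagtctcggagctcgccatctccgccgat
Hlf, chr11:90390918-90391167, minus strand: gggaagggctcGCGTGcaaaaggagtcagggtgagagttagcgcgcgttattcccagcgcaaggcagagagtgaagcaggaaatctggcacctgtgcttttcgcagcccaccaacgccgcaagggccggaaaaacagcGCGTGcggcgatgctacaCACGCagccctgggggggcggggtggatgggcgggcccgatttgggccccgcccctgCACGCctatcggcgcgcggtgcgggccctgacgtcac
A set of 6 motifs was searched on both strands, none containing another: AGGTCA, the half-site of ROR and REV-ERB receptors, TGAGTCA, bound by BATF with a JUN protein, GCGTG, the core bound by AHR with ARNT, ACAAT, the core of SOX proteins, TTANNTAA, bound by PAR proteins, and GGTGTGA, a T-box half-site. Only GCGTG occurred, once in Rora and at 4 places in Hlf. It is found in 28.2% of the 32851 promoters of the table, so a match is common, and it describes the letters of the window and no binding. For comparison, AGGTCA is in 14% of promoters, ACAAT in 27.7%, TTANNTAA in 5.43%, TGAGTCA in 4.46% and GGTGTGA in 3.33%.

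The SOX genes parted. Sox13, an HMG-box factor needed by the Vγ4 type 17 cells of mice, read -2.32, -2.55 and -1.77 in Eomes-positive cells, against -1.17, -0.82 and 1.01 in Eomes-negative cells. The groups did not overlap, but the Eomes-negative array of sort 3 lay far above the other two. The difference was -1.89 (SE 0.60), with -1.15, -1.73 and -2.78 in the 3 sorts, and it did not pass the test (limma adjusted p = 0.257, or 0.0557 with the sort as a block). Its 95% interval, -3.38 to -0.40, spans from a small to a 10.4-fold lower signal. Without that Eomes-negative array the difference was -1.22.

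Sox4, a related factor also expressed early in lymphocyte development, was bright in both groups. Its brightest probe, at chr13:29040826-29040885, read 3.43, 3.14 and 3.39 in Eomes-positive cells, against 3.45, 2.76 and 3.17 in Eomes-negative cells. The groups overlapped, with a difference of 0.19 (SE 0.22, limma adjusted p = 0.918). The 95% interval of -0.35 to 0.73 leaves room for a signal up to 1.27-fold lower or 1.66-fold higher. The second probe, 2.03 kb away, read 1.98, 1.79 and 1.47 in Eomes-positive cells, against 1.47, 0.84 and 1.33 in Eomes-negative cells, a difference of 0.53 that did not pass the test over probes (adjusted p = 0.497). This probe was higher in Eomes-positive cells in all 3 sorts, by 0.51, 0.95 and 0.14, with groups that met at 1.47. The third, 3.66 kb away, differed by 0.61 in sort 1, 0.96 in sort 2 and -0.47 in sort 3. None of the Sox4 probes had a mean difference below 0.

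Ahr and Batf had smaller differences. Ahr encodes the aryl hydrocarbon receptor, a ligand-activated factor that supports interleukin 22 production by type 17 cells. Probe 1 read 0.62, 0.22 and 0.76 in Eomes-positive cells, against 1.82, 1.15 and 1.11 in Eomes-negative cells. The groups did not overlap, and the gap shrank to -0.35 in sort 3 beside -1.20 in sort 1 and -0.93 in sort 2. The difference was -0.82 (SE 0.26, 95% interval -1.47 to -0.18) and did not pass the test (limma adjusted p = 0.252, or 0.09 with the sort as a block). Ahr probe 2 was well above background on 1 of the 6 arrays, the Eomes-negative array of sort 2.

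Batf encodes a leucine zipper protein that pairs with JUN proteins and IRF4 at genes of interleukin 17 production. It read 2.44, 2.37 and 2.41 in Eomes-positive cells, against 2.69, 2.61 and 2.73 in Eomes-negative cells. Both groups were tight, with SDs of 0.04 in Eomes-positive and 0.06 in Eomes-negative cells. The difference, -0.27 (SE 0.12), was a 1.20-fold lower signal with a 95% interval of -0.57 to 0.04 in the fit by group alone. The 3 sorts gave -0.25, -0.24 and -0.31, and the SE was 0.09 with the sort as a block. The difference did not pass the test (limma adjusted p = 0.51, or 0.16 with the block).

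**Figure D3:**
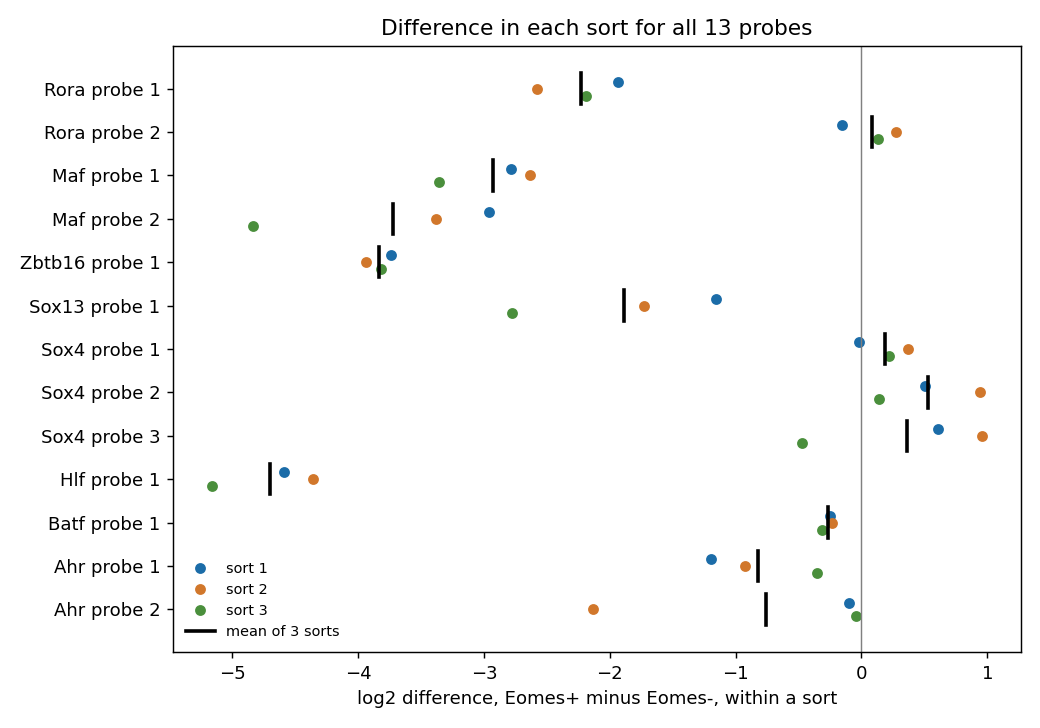
Log2 difference, Eomes+ minus Eomes-, within each sort (coloured points) and its mean over 3 sorts (black bars) for all 13 probes, with probes of a gene numbered from the brightest. Zbtb16 and Batf have the closest points, the Maf, Hlf and Sox13 differences are greatest in sort 3, and Rora probe 2 and Ahr probe 2 were measured on 0 and 1 of the 6 arrays.

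At the level of probes, 11 of the 13 were measured on at least 3 arrays and entered a fit over 21131 probes. Of these, 4 fell and 0 rose (limma, adjusted p under 0.05), against 1.38% of all probes that fell and 1.04% that rose. They were the probes of Zbtb16 and Hlf and the first probes of Maf and Rora. Between the genes that fell, the order of the fitted differences from Hlf through Zbtb16 and Maf to Rora rests at its Hlf end on signal below background. The 95% intervals of Zbtb16 and Maf overlapped, as did those of Maf and Rora, and those of Zbtb16 and Rora did not.

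Of 43 listed relatives, partners and targets of the 8 factors, 29 were tested, and 3 fell and 0 rose: Nr1d1, Arnt2 and Tiparp. Nr1d1 encodes REV-ERBα, a repressor of the circadian clock that binds the same DNA element as the ROR proteins. It read -7.24, -6.27 and -6.22 in Eomes-positive cells, none well above background, against -2.60, -2.07 and -1.36 in Eomes-negative cells. Nr1d1 was thus at least 6.41-fold lower, or at least 5.11-fold without the Eomes-negative array of sort 3. Its fitted difference was -4.56 (limma adjusted p = 0.00758). This call was lost without sort 1, 2 or 3 (adjusted p = 0.0856, 0.124 and 0.0693) and with normexp background correction (-2.03, adjusted p = 0.106). The other 8 clock genes tested did not pass. Among them Nr1d2, the paralogue of Nr1d1, differed by -0.02 and Arntl, the clock activator gene Bmal1, by -0.30. The largest differences among these 8 genes were upward, 0.87 for Bhlhe40 and 0.54 for Cry2, followed by -0.50 for Cry1. Of all 9 clock genes tested, 5 had negative differences, Nr1d1 included.

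In the AHR pathway, 2 of 5 tested genes fell. Tiparp, an ADP-ribosyltransferase induced by AHR, read -0.58, -0.75 and -0.64 in Eomes-positive cells, against 0.36, 0.05 and 0.20 in Eomes-negative cells, without overlap. Its difference was -0.86 (SE 0.15, limma adjusted p = 0.0467), a call close to the threshold that was lost without any 1 of the sorts or arrays (adjusted p = 0.111 to 0.381). Arnt2, a relative of the AHR partner ARNT, was not well above background on the Eomes-positive arrays and read -4.17, -3.16 and -2.26 on the Eomes-negative ones. It was at least 2.81-fold lower, or at least 2.035-fold without the Eomes-negative array of sort 3. Its fitted difference was -3.78 (limma adjusted p = 0.0258). With Eomes-positive values raised to the floor, the Arnt2 difference was -1.49 and did not pass (adjusted p = 0.339). Omitting any 1 sort ended the Arnt2 call (adjusted p = 0.0896 to 0.285), as did omitting any array but Eomes-negative array 1 (0.0596 to 0.116). Arnt itself differed by 0.12 and Ptges3, a chaperone of the receptor, by 0.03. The induced genes Cyp1a1, Cyp1a2 and Cyp1b1 were not measured on any array.

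In the MAF, SOX, PAR and BATF lists 0 genes passed the limma test, and Tef and Irf4 had an unadjusted p under 0.05. Rorb, a relative of Rora, was not measured on any array. Mafa, the brightest tested Maf relative, differed by -0.05 and Mafg, a small Maf protein, by -0.30. Sox5, at 5.20 ± 0.21 in Eomes-positive and 5.06 ± 0.16 in Eomes-negative cells (SD, n = 3 each), differed by 0.14, and the other listed SOX genes (Sox6, Sox11 and Sox12) were not measured on any array. Of the PAR family, Dbp differed by -0.31 and Tef by 0.79, and Tef passed when sort was a block (limma adjusted p = 0.150 without it and 0.0227 with it). Among BATF and its partners, Jund differed by -0.38 and Irf8 by 1.24. Irf4, the partner gene of Batf in type 17 cells, differed by -1.53 (adjusted p = 0.182, or 0.0475 with the block).

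**Figure D4:**
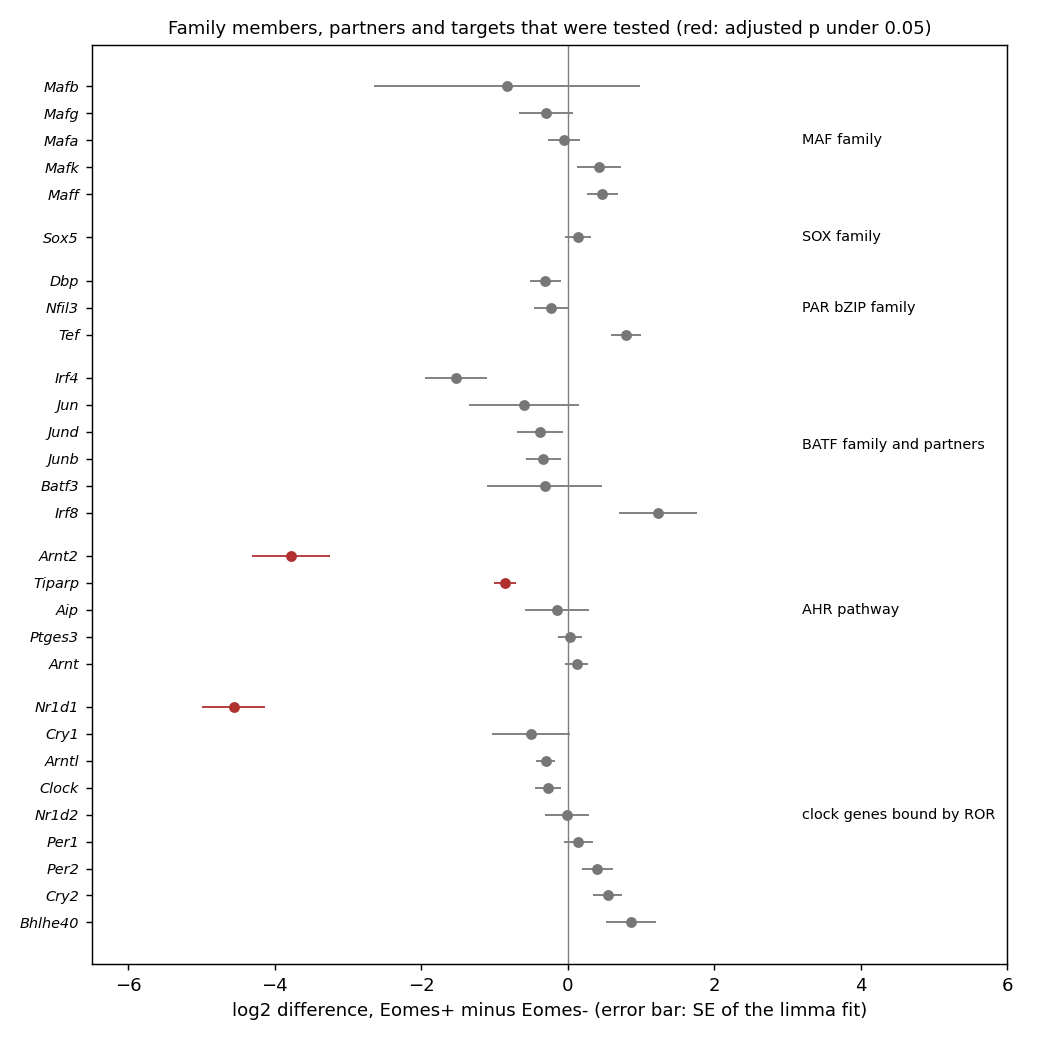
Log2 difference, Eomes+ minus Eomes-, with its SE from the limma fit for the 29 tested relatives, partners and targets, grouped by list from the MAF family at the top to the clock genes at the bottom. The 3 that passed the test (red) are Arnt2 at -3.78, Tiparp at -0.86 and Nr1d1 at -4.56.

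The effector and receptor genes of the type 17 fate had greater differences at the median than the 8 factors. Of 30 tested, 19 fell and 0 rose (limma, adjusted p under 0.05), with a median difference of -3.91, or -3.60 with values raised to the floor. This list and the 8 factors were chosen with results of these data known. The list is no independent support for its direction, and the gap between the 2 medians depends on which genes were picked. The potassium channel gene Kcnk1 (at least 38.4-fold lower) and the cytokine receptor genes Il23r (at least 21.8-fold) and Il1r1 (at least 22.3-fold) had no Eomes-positive array well above background. With 1 array left out, these bounds went down to 31.2-fold, 17.9-fold and 19.1-fold. With normexp background correction the 3 differences were -4.34, -3.84 and -3.81. The integrin gene Itgae, the kinase gene Blk and the receptor gene Il17re were well above background on 1 of 3 Eomes-positive arrays. Their differences were -7.11, -6.93 and -6.55, or -5.88, -6.12 and -5.56 raised to the floor. Il21r differed by 0.05, and Il22, measured on 3 of the 6 arrays, by 0.08. Of the interleukin 17 genes, Il17a was not measured on any array and was not tested. Il17f was not measured on any Eomes-positive array and differed by -2.16 (limma adjusted p = 0.063, or 0.0254 with the sort as a block). Raised to the floor, the Il17f difference was -0.39 (adjusted p = 0.939). The count of 19 was 0 without sort 1, 0 without sort 2 and 3 without sort 3, and 11 without Eomes-negative array 2, 10 without Eomes-negative array 3 and 11 without Eomes-positive array 3.

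**Figure D5:**
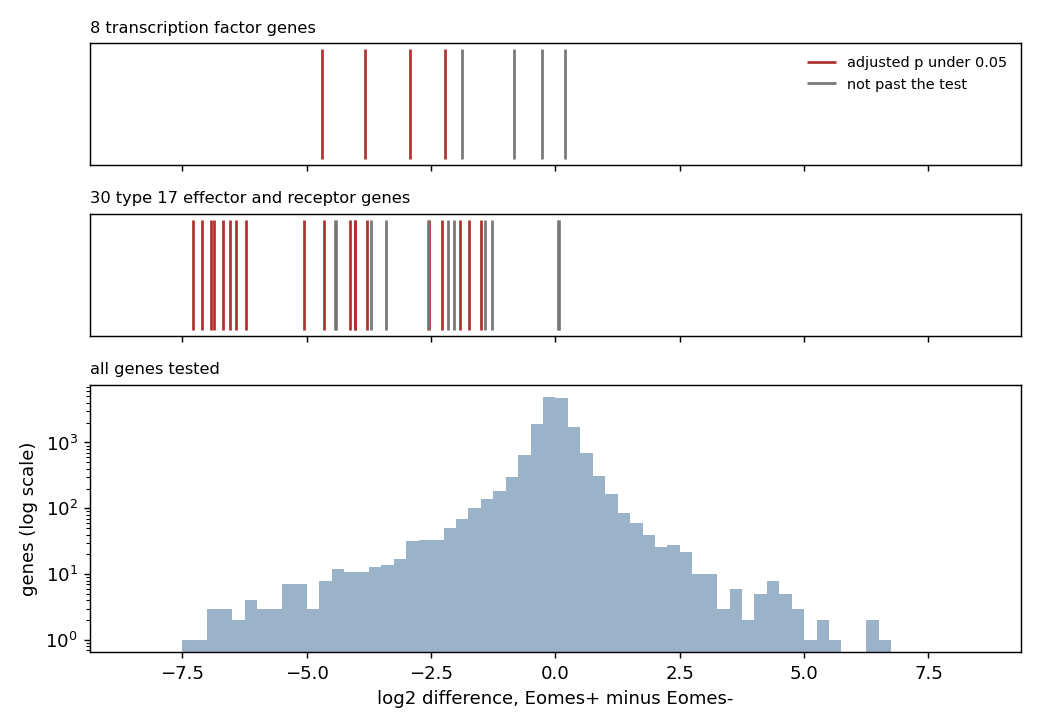
Log2 differences, Eomes+ minus Eomes-, of the 8 transcription factor genes (top), of 30 tested type 17 effector and receptor genes (middle) and of all 16413 genes tested (bottom, gene counts in bins on a log scale). Red lines passed the test and grey lines did not. The factors run from -4.70 to 0.19 and have a median of -2.06, the effector genes have a median of -3.91, and all genes centre on -0.01.

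Markers of other cells that the sort could hold were read beside the 8 factors. Of 9 αβ T cell genes tested, Cd8b1, the chain used for depletion, fell (-2.86, limma adjusted p = 0.0194) and 0 rose. Of 9 NK genes, Klre1 (4.33) and Styk1 (2.62) rose and 0 fell. At an unadjusted p under 0.05 there were 7 αβ T cell and 6 NK genes. The αβ T cell genes at that threshold were lower in Eomes-positive cells except Cd28, which was higher by 0.58. Trat1 was also higher, by 0.62, and did not reach that threshold. With the sort as a block, 4 αβ T cell genes fell (Cd8b1, Cd5, Themis and Foxp3) and 5 NK genes rose (Klre1, Styk1, Adamts14, Klra4 and Prf1). The summed αβ T cell level was 5.80, 5.58 and 5.32 in Eomes-positive cells, against 6.33, 5.77 and 5.75 in Eomes-negative cells, lower in all 3 sorts. The summed NK level was 6.07, 6.89 and 6.39 in Eomes-positive cells, against 5.50, 6.91 and 5.17 in Eomes-negative cells, higher in sorts 1 and 3. Without any 1 sort the 3 calls made without the block ended (adjusted p = 0.0952 to 0.268 for Cd8b1, 0.0616 to 0.152 for Klre1 and 0.0528 to 0.328 for Styk1). Cd8b1 also lost its call without any Eomes-negative array or Eomes-positive array 1 (0.0618 to 0.0805), and Styk1 without any array but Eomes-negative array 3 (0.0658 to 0.139). Of 8 B cell and 6 erythroid or platelet genes, 0 passed the limma test, with 1 and 0 at an unadjusted p under 0.05. Cd79b, a B cell receptor chain, differed by -0.92 (adjusted p = 0.0598, or 0.0217 with the sort as a block), Ms4a1, the CD20 gene, by 0.02, and the globin genes Hba-a1 and Hbb-bs by 0.24 and 0.34. The summed B cell level was 2.88, 3.62 and 3.42 in Eomes-positive cells, against 3.91, 4.26 and 4.19 in Eomes-negative cells. The part of these cells in the 8 differences was not tested.

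The genes whose levels ran most like each factor over the 6 arrays were taken from 10769 genes with plain symbols measured on all 6. These correlations share the 2 groups, so any gene with a clean group difference scores high, and they are given as a description of 6 arrays without a test. For Maf they were Ramp3, an accessory protein of calcitonin family receptors (r = 0.999), the kinase gene Matk (0.996) and Cox7a1 (0.995). Ramp3 differed by -4.48. For Zbtb16 they were Shld1 (0.999), Rara, the gene of a retinoic acid receptor (0.998), and Trp53i13 (0.997). For Hlf they were Rgcc (0.999), the death receptor family gene Tnfrsf25 (0.998) and Smco4 (0.996). Tnfrsf25 differed by -4.61. For Rora they were Rasa3 (0.996), Armc3 (0.995) and the filamin gene Flna (0.993), whose differences of -0.75, -0.70 and -0.48 were much smaller than that of Rora. Sox13 ran most like the integrin gene Itgal (0.997), Acot7 (0.995) and Qprt (0.992), Batf like Ecm1 (0.996), Arhgap31 (0.993) and Add1 (0.992), Ahr like Ctps (0.999), Usp28 (0.995) and Mllt11 (0.99), and Sox4 like Septin7 (0.996), Sf3a3 (0.991) and Ogt (0.99). Among the factors themselves, the highest correlation was between Maf and Zbtb16 (0.99), and Sox4 ran against Maf (-0.49).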

How the data were processed

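Total RNA of 6 samples was amplified in 1 round, labelled and hybridised to one-colour Agilent arrays. Per the file headers, the deposited scanner values are spot intensities after background subtraction and detrending by the scanner software, Agilent Feature Extraction 10.7.3.1 per the submitters' processing notes. The series-wide values that the authors deposited are intensities scaled to a common 75th percentile (1497 to 1506 per array), which served as an alternative.

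The deposited processed intensity was taken to log2, averaged over the spots of each probe after dropping outlier spots, and set relative to the 75th percentile of its array. RefSeq transcript IDs named 27508 of 39429 probes, and the rest kept the file's name. Each gene was represented by its brightest probe on average and tested if 3 or more of the 6 arrays measured it. The test was limma 3.58.1 (R 4.3.3, statmod 1.5.0, package data.table, version 1.17.8) by group alone, with Benjamini-Hochberg adjustment over 16413 genes. The fit was tested on simulated data. Same-numbered arrays come from 1 sort, and their deviations from the group means correlated at 0.815, 0.838 and 0.857 over 13783 genes, so the sort also entered as a block. Slide (3 slides, with Eomes-positive array 2 alone on slide 2) was a further block. Named are the 8 factors, Eomes, Tbx21, up to 6 called genes of each list by size or the 2 brightest where none was called, and the 3 genes most like each factor; further genes were named after their values were seen, and 1 gene of this rule is not reported here. The 8 factors and all lists were chosen with earlier results of these data known. Alternatives covered background correction, scaling, filters, probe choice, blocks, array weights and each sort or array left out. Figures were drawn with matplotlib 3.10.9 in Python 3.11.15 with pandas 2.3.3.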

Additional observations from a re-analysis of the deposited data

How the results depend on the processing

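With 3 arrays per group, adjusted p-values near the threshold are fragile. No difference of the 8 factors changed direction in any setting. With the sort as a block (paired analysis), all genes gave 710 lower and 600 higher calls beside 257 and 197 without it, the relatives gave 1 higher, the 4 calls among the factors stood, and 5 probes were called lower beside 4. Without a filter on dim probes, all genes gave 154 lower and 92 higher, and with genes measured on all 6 arrays 166 lower. Array weights gave 326 higher. The relatives gave 0 lower with normexp background correction and 1 lower with genes measured on all 6 arrays, beside 3. The causes were not tested, except that these filters change which genes enter. Leaving out a sort gave 0 to 28 lower and 0 to 41 higher over all genes, 0 to 2 lower among the factors, 0 to 3 among the type 17 effectors and 0 among the relatives. Leaving out an array gave 94 to 180 lower and 57 to 101 higher over all genes, 3 to 4 among the factors, 10 to 20 among the effectors and 1 to 2 among the relatives. Without sort 1 or 2, limma called 0 of all genes, with 1354 and 1267 at an unadjusted p under 0.05. Eomes-positive array 2 was alone on slide 2, while Eomes-negative array 2 was on slide 1 with both arrays of sort 1. Slide 1 was therefore not balanced, and in sort 2 group and slide cannot be told apart. Within slide 1 and slide 3 the differences were -1.93 and -2.19 for Rora, -2.92 and -3.36 for Maf, -3.83 and -3.82 for Zbtb16, and -4.73 and -5.17 for Hlf. The Rora difference was -1.07 as the mean of its probes, 1 of which was not measured, and that of Hlf -2.18 with normexp. Within slide 3 the Ahr difference was -0.35, and within slide 1 it was -0.86. Median scaling moved the median of all genes by 0.0983. Signal over background limits Hlf, Nr1d1, Arnt2 and 5 of the effector genes, which were not measured on any Eomes-positive array.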
